A study of Homo sapiens with 9 samples.

Results

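The genes described here are the G1 cyclins and CDK inhibitors of SKOV3 ovarian cancer cells, the 5 cyclins CCND1, CCND2, CCND3, CCNE1 and CCNE2 and the 5 inhibitors CDKN1A, CDKN1B, CDKN2A, CDKN2B and CDKN2C. They were chosen by gene name from a count table of 58735 genes, and each of the 10 names matched 1 row. Of these 10 genes, 7 had enough counts to be tested, among 16350 tested genes in all, and CCND2, CDKN2A and CDKN2B did not.

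D-type cyclins are made in response to growth signals and activate CDK4 and CDK6, which phosphorylate the retinoblastoma protein and release E2F transcription factors. E-type cyclins are themselves E2F targets and activate CDK2 at the entry into S phase. The CIP/KIP inhibitors p21 (CDKN1A) and p27 (CDKN1B) bind cyclin-CDK2 complexes, whereas the INK4 inhibitors p16 (CDKN2A), p15 (CDKN2B) and p18 (CDKN2C) bind CDK4 and CDK6 themselves. Loss of INK4 genes and gain of CCNE1 or CCND1 are recurrent in human tumours, ovarian cancer included.

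Bulk RNA was sequenced from SKOV3 cells in 3 groups of 3 libraries. WT CDK9 cells stably expressed wild-type CDK9, the kinase of the elongation factor P-TEFb, and were left untreated. ALK inhibitor-treated WT CDK9 cells were the same kind of cells after 24 h with an inhibitor of ALK, a receptor tyrosine kinase that the study describes as a kinase of CDK9. Tyr19Phe CDK9 cells stably expressed CDK9 with phenylalanine in place of the tyrosine that ALK acts on, so that it cannot be phosphorylated there, and were left untreated. The study made such lines by re-expressing FLAG-tagged CDK9 in CDK9-depleted cells, so all groups carry an added CDK9, but whether the sequenced lines carry the depletion, how many clones they came from and which inhibitor was used are not given in the sources used here. Nothing says that the libraries of a group came from separate cultures, so the p-values measure only the spread between these libraries, which may be technical.

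Each library held between 18169050 and 29320184 counted reads, and the 3 Tyr19Phe CDK9 libraries were the deepest, from 26485891 reads upwards. ALK inhibitor library 2 and Tyr19Phe library 3 had fewer genes with at least 1 read, 19944 and 20635, than the other libraries of their groups, which had from 21911 to 22744. CDK9 itself was listed at 48.6 ± 1.03 CPM (the usual count unit, scaled to library size with TMM factors; SD, n = 3) in WT CDK9 cells, 45.6 ± 1.77 in treated cells and 55.0 ± 3.94 in Tyr19Phe CDK9 cells. It was called higher in Tyr19Phe CDK9 cells than in treated cells (log2 fold change 0.27, SE 0.08), and was not called in either comparison with WT CDK9 cells. Gene counts cannot show the substitution itself, and they cannot separate the added CDK9 from the cells' own. Of 9 markers of ovarian cancer and SKOV3 cells, 8 were detected well enough to be tested, with KRT7, KRT8 and ERBB2 the most abundant. Of the 8, 2 were called after ALK inhibition, ERBB2 at a log2 fold change of 0.54 (SE 0.03) and KRT7 at -0.35 (SE 0.03). Against WT CDK9 cells 5 were called with the substitution, MSLN at -1.67 (SE 0.10), EPCAM at -0.82 (SE 0.13), ERBB2 at -0.29 (SE 0.03), KRT8 at 0.38 (SE 0.03) and KRT18 at 0.39 (SE 0.05). Their part in the results on the members was not tested. MUC16 had 0 to 9 reads, and none of 7 leukocyte and endothelial markers was tested. The summed level of those 7 was 0.616 to 1.12 CPM in WT CDK9 libraries, 0.522 to 0.714 CPM in treated libraries and 1.15 to 1.78 CPM in Tyr19Phe CDK9 libraries. The endothelial gene CDH5 accounted for a mean of 0.787 CPM of the Tyr19Phe sum and was at 0 in WT CDK9 libraries, whereas PTPRC, CD3E and PECAM1 were at 0 in all Tyr19Phe CDK9 libraries.

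The stretch upstream of CCNE1 is shown, a member called between treated and Tyr19Phe CDK9 cells that had an entry in the table of promoters used here. CCND3, called in both comparisons with WT CDK9 cells, also had an entry but is not shown. Of the 10 genes, 7 had an entry in the RefSeq promoter table (GRCh38.p14), and CCND1, CCND2 and CCNE2 had none. The stretch lies at chr19:29811741-29811897 on the plus strand, 157 bases that end just before the CCNE1 start of the count table. Capitals mark GC boxes (GGGCGG on either strand, so CCGCCC on the opposite one), the letters that SP1-type factors bind.
CCNE1: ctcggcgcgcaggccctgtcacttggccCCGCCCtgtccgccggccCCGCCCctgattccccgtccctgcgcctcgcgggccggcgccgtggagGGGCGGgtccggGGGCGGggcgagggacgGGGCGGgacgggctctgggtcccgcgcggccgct
This window held 5 GC boxes, beginning 222, 204, 156, 144 and 127 bases before the RefSeq start, and 27.1% of 35116 promoters held at least 1 in a window of the same place and length. The E2F words TTTCCCGC, TTTCGCGC, TTTGCCGC and TTTGGCGC, on either strand, had 0 matches in it and a match in 1.68% of promoters. TATAAA also had 0 matches, against 6.52% of promoters, and these letter matches describe the sequence only. The bases between this window and the RefSeq start, at 29811991, were not searched, so the matches do not cover the whole promoter.

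In SKOV3 cells the G1 cyclin message was mostly CCND1. Per kilobase of listed gene length, CCND1 was at 94.1 ± 0.496 CPM (SD, n = 3) in WT CDK9 cells, a higher level than 98.1% of tested genes over the 9 libraries. CDKN2C, the p18 inhibitor of CDK4 and CDK6, came next at 21.6 CPM per kilobase, before CCND3 at 17.2, CCNE1 at 10.3, CDKN1B at 9.75, CCNE2 at 5.58 and CDKN1A at 1.15. Between neighbours in this order the ranges over all 9 libraries were separate, with 1 exception: CCNE1 and CDKN1B overlapped, the lowest CCNE1 library being at 8.53 and the highest CDKN1B library at 10.6 CPM per kilobase. CDKN1A, the p21 inhibitor of CDK2, was above 31.1% of tested genes only.

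The remaining inhibitors p16 and p15 and the cyclin CCND2 were near or at 0. CDKN2A (ENSG00000147889, chromosome 9, 21967753 to 21995301, minus strand) had 1, 1 and 0 reads in WT CDK9 libraries, 1, 0 and 0 in treated libraries and 0 in each Tyr19Phe CDK9 library. CDKN2B (ENSG00000147883, chromosome 9, 22002903 to 22009363, minus strand) had 0 reads in all 9 libraries. CCND2 (ENSG00000118971, chromosome 12, 4273772 to 4305350, plus strand) had 3 reads in treated library 1 and 0 in the others. A count of 0 allows up to 3 reads, which is 0.102 to 0.165 CPM depending on the library, and these limits cover counting error only.

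MTAP, the methionine salvage enzyme whose gene lies beside CDKN2A, was well expressed, with 736 to 1364 reads per library. Of the 22 genes listed within 500 kb of CDKN2A, 4 were tested, MTAP, MIR31HG (37 to 99 reads), IFNE (6 to 45) and AL359922.2 (1 to 18), and 11 had no read in any library. The 11 were CDKN2B, its antisense RNA CDKN2B-AS1, CDKN2A-DT, AL359922.1, AL449423.1, AL137022.1, AL157937.1, UBA52P6, RF00157, RF02045 and RF01909. DMRTA1, on the far side of CDKN2B, had 2 to 17 reads, and AL359922.3, TUBB8P1, ERVFRD-3, KHSRPP1, MIR31 and RN7SL151P had at most 12. The 21 genes within 500 kb of CDKN2B were the same ones apart from IFNE and, in place of CDKN2B, CDKN2A.

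CCND2 likewise had tested genes near it. Of 24 genes within 500 kb, 6 were tested, RAD51AP1 (403 to 807 reads), C12orf4 (225 to 463), DYRK4 (84 to 202), NDUFA9 (81 to 180), PARP11 (75 to 131) and TIGAR (5 to 35). The growth factor genes FGF23 and FGF6 were among 11 at 0 in all libraries, with CCND2-AS1, AC008012.1, GALNT8, AC007207.1, AC007207.2, AC006122.1, AC005832.2, AC005832.3 and AC005832.4. AKAP3, HSPA8P5, OTUD4P1, AC005842.1, AC005832.1, AC005833.1 and GAU1 had at most 13 reads in any library.

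**Figure D1:**
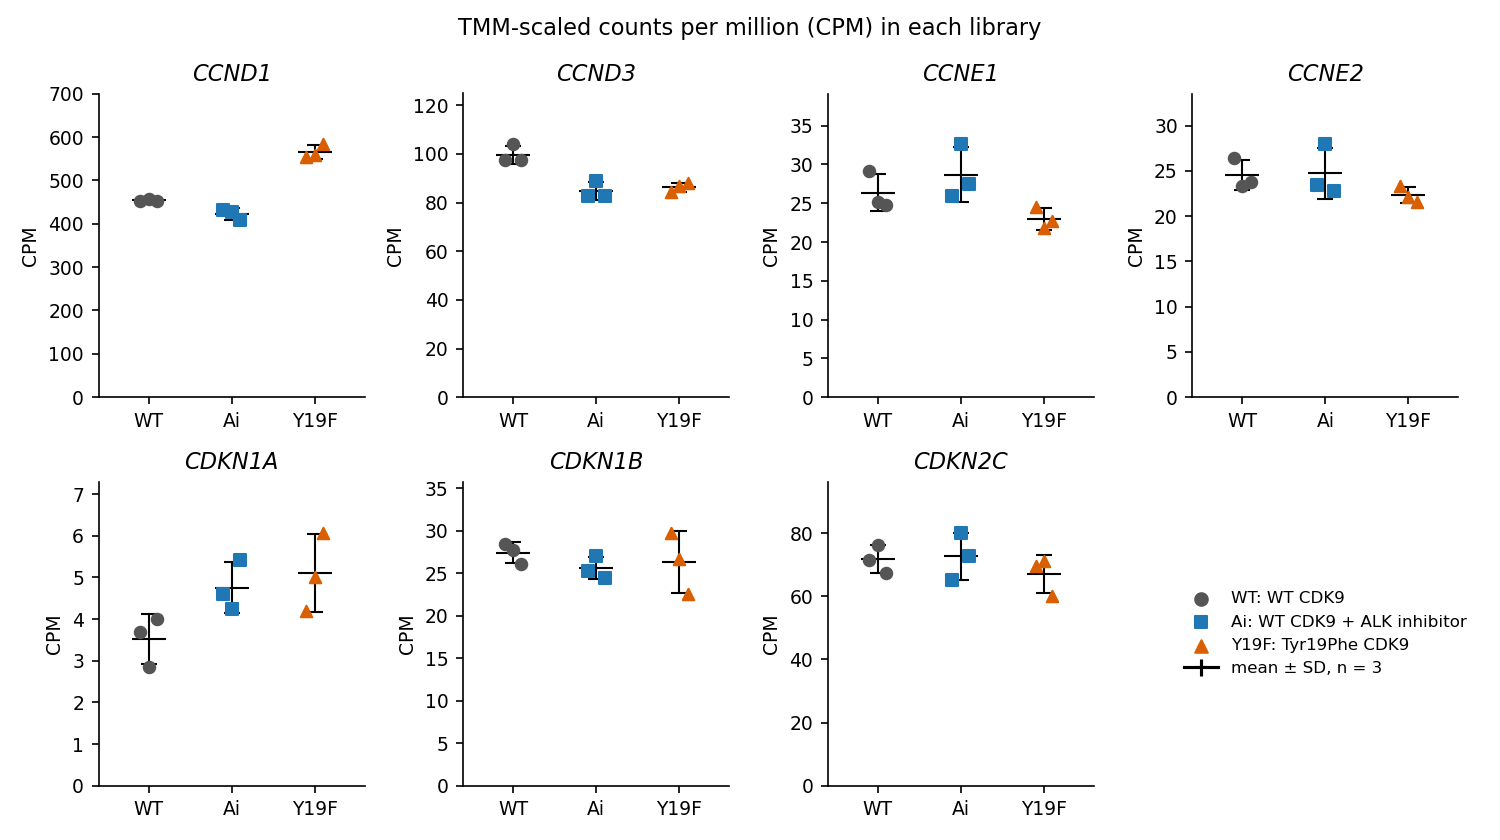
Each point is 1 library and the y axes give TMM-scaled CPM from 0, for WT CDK9 cells (WT), ALK inhibitor-treated WT CDK9 cells (Ai) and Tyr19Phe CDK9 cells (Y19F), with the mean ± SD of 3 libraries. The lowest Y19F point of CCND1 lies at 555 CPM and the highest WT or Ai point at 457 CPM, and for CCND3 the 3 WT points lie above every other point.

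To find out which members responded to 24 h of ALK inhibition, treated and untreated WT CDK9 cells were compared. CCND3, the tested D-type cyclin with the lower message level, fell, and no other tested member was called. Of 7 tested members 1 was called at an adjusted p under 0.05 in edgeR's quasi-likelihood test, beside 4.55% of all tested genes (1.82% higher and 2.73% lower), and 2 had an unadjusted p under 0.05, beside 15.1%. The libraries of the groups did not overlap for 3 of the 7 members, beside 19.6% of all tested genes. The median log2 fold change was 0.0093 over the members and -0.0010 over all tested genes.

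CCND3 (ENSG00000112576, chromosome 6, 41934933 to 42050357, minus strand) was at 97.4, 104 and 97.4 CPM in WT CDK9 libraries and at 82.6, 88.9 and 82.7 CPM in treated libraries. All treated libraries lay below all untreated ones. The log2 fold change was -0.23 (SE 0.06, 95% interval -0.36 to -0.11), or a level 0.85 times that of untreated cells, with an adjusted p of 0.0157. The call did not hold without WT CDK9 library 2 (adjusted p = 0.112), without treated library 1 (0.0924) or without treated library 3 (0.0845), and the log2 fold change was between -0.27 and -0.20 under all alternatives run. Bulk RNA cannot tell fewer cells that express a gene from less of its RNA per cell, here and in the results that follow.

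CCND1 (ENSG00000110092, chromosome 11, 69641087 to 69654474, plus strand) was at 453, 457 and 453 CPM in WT CDK9 libraries and at 433, 428 and 408 CPM in treated libraries. The treated libraries were all lower, by a small margin. The log2 fold change of -0.10 (SE 0.04, 95% interval -0.18 to -0.03) had an adjusted p of 0.135 in edgeR's quasi-likelihood test and of 0.0455 in DESeq2, so the call depended on the tool.

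The E-type cyclins were not called after ALK inhibition. CCNE1 (ENSG00000105173, chromosome 19, 29811898 to 29824308, plus strand) was at 29.1, 25.2 and 24.8 CPM in WT CDK9 libraries and at 25.9, 32.6 and 27.5 CPM in treated libraries, and the groups overlapped. Its log2 fold change was 0.12 (SE 0.11, 95% interval -0.10 to 0.34, adjusted p = 0.703). CCNE2 (ENSG00000175305, chromosome 8, 94879770 to 94896678, minus strand) was at 26.4, 23.4 and 23.8 CPM in WT CDK9 libraries and at 23.5, 28.0 and 22.7 CPM in treated libraries, with a log2 fold change of 0.01 (SE 0.11, 95% interval -0.21 to 0.23).

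Among the inhibitors, CDKN1A (ENSG00000124762, chromosome 6, 36676460 to 36687339, plus strand) was at 3.69, 2.85 and 4.01 CPM in WT CDK9 libraries and at 4.60, 4.23 and 5.43 CPM in treated libraries. The treated libraries were all higher, but the counts behind them were only 54 to 105 reads. The log2 fold change of 0.43 (SE 0.25, 95% interval -0.07 to 0.93) had an adjusted p of 0.428. CDKN1B (ENSG00000111276, chromosome 12, 12715058 to 12722371, plus strand), which holds cells in G1 when growth factors are scarce, had a log2 fold change of -0.10 (SE 0.11, 95% interval -0.32 to 0.12) from 27.4 ± 1.26 to 25.6 ± 1.31 CPM (SD, n = 3). CDKN2C (ENSG00000123080, chromosome 1, 50960745 to 50974633, plus strand) had a log2 fold change of 0.02 (SE 0.08, 95% interval -0.14 to 0.18), with 71.7 ± 4.38 CPM in untreated and 72.7 ± 7.46 CPM in treated cells.

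Tyr19Phe and WT CDK9 cells were then compared to find out which members differed between these lines. In this comparison the substitution cannot be told apart from other differences between the lines or from library depth. CCND1 was higher and CCND3 lower in Tyr19Phe CDK9 cells, so the main D-type cyclin and the minor one went opposite ways. Of 7 tested members 2 were called, beside 18.0% of all tested genes (7.61% higher and 10.4% lower), and 3 had an unadjusted p under 0.05, beside 29.0%. The libraries did not overlap for 5 of the 7, beside 32.6% of all tested genes, and the median log2 fold change was -0.10 over the members and 0.0035 over all tested genes.

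CCND1 was at 555, 558 and 584 CPM in Tyr19Phe CDK9 libraries, against the 453 to 457 CPM of WT CDK9 libraries. The lowest Tyr19Phe library lay well above the highest WT library. The log2 fold change was 0.32 (SE 0.04, 95% interval 0.24 to 0.39), a level 24.5% higher, with an adjusted p of 1.32e-07. CCND1 was called in 6 of 6 fits that left out 1 library (adjusted p at most 5.67e-06), and its log2 fold change was between 0.30 and 0.34 under all alternatives run.

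CCND3 was at 84.4, 86.6 and 87.9 CPM in Tyr19Phe CDK9 libraries, all below the WT CDK9 libraries. The log2 fold change was -0.21 (SE 0.06, 95% interval -0.33 to -0.09, adjusted p = 0.0119), or 0.866 times the WT level. The call did not hold without WT CDK9 library 2 (adjusted p = 0.0806), the highest of its group, or without Tyr19Phe library 1 (0.0545).

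CCNE1 was at 24.5, 21.8 and 22.7 CPM in Tyr19Phe CDK9 libraries, just below the lowest WT CDK9 library. Its log2 fold change was -0.20 (SE 0.11, 95% interval -0.42 to 0.02, adjusted p = 0.223). CCNE2 was at 23.3, 22.2 and 21.5 CPM, also just below the lowest WT CDK9 library, with a log2 fold change of -0.13 (SE 0.11, 95% interval -0.35 to 0.08, adjusted p = 0.451). Neither E-type cyclin was called, although no Tyr19Phe library of either overlapped with WT CDK9.

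CDKN1A was at 4.20, 5.02 and 6.07 CPM in Tyr19Phe CDK9 libraries, from 124, 141 and 161 reads, and all lay above the WT CDK9 libraries. Its log2 fold change was 0.53 (SE 0.24, 95% interval 0.04 to 1.02), with an unadjusted p of 0.0342 and an adjusted p of 0.132 in edgeR's quasi-likelihood test. CDKN1B was at 26.3 ± 3.63 CPM (SD, n = 3), with the widest relative spread of its 3 groups and a log2 fold change of -0.06 (SE 0.11, 95% interval -0.27 to 0.16). CDKN2C was at 67.0 ± 6.02 CPM (SD, n = 3), with a log2 fold change of -0.10 (SE 0.08, 95% interval -0.26 to 0.06).

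**Figure D2:**
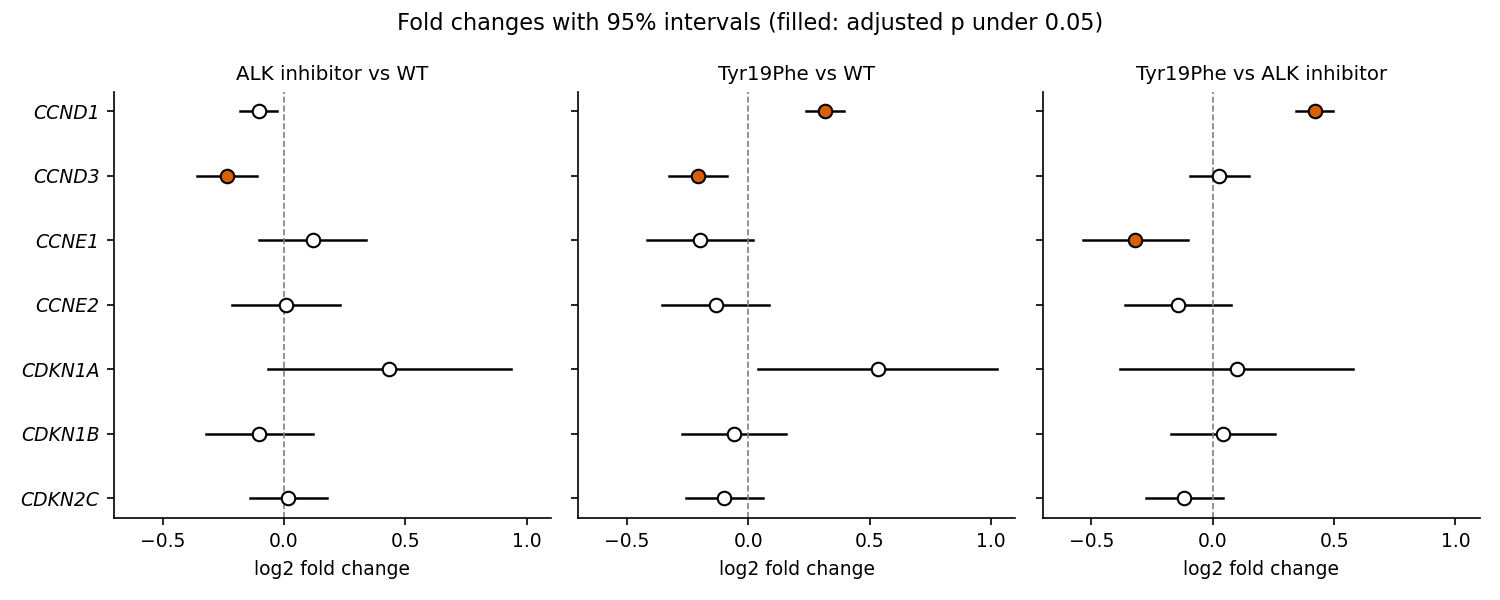
The x axes give the log2 fold change of each tested member (rows) in the 3 comparisons (panels), lines are 95% intervals and filled points had an adjusted p under 0.05 in edgeR's quasi-likelihood test. CCND1 is filled on the positive side in both Tyr19Phe panels, CCND3 is filled on the negative side in both panels against WT, and the interval of CDKN1A is the widest in every panel.

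Tyr19Phe CDK9 cells were also compared with treated cells directly, since both comparisons above share the WT CDK9 libraries. Here too the substitution cannot be told apart from line or depth. CCND1 was higher and CCNE1 lower in Tyr19Phe CDK9 cells than in treated cells. These 2 of 7 members were called, beside 20.7% of all tested genes (9.57% higher and 11.1% lower), and the same number had an unadjusted p under 0.05, beside 31.5%. The libraries did not overlap for these 2 members, beside 34.4% of all tested genes, and the median log2 fold change was 0.03 over the members and 0.0018 over all tested genes.

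For CCND1 the log2 fold change between Tyr19Phe and treated cells was 0.42 (SE 0.04, 95% interval 0.34 to 0.50, adjusted p = 3.55e-10), or 1.34-fold. It was called in 6 of 6 fits that left out 1 library, with adjusted p of at most 4.50e-08. For CCNE1 the log2 fold change was -0.32 (SE 0.11, 95% interval -0.54 to -0.10, adjusted p = 0.0316), or 0.802 times the level of treated cells. Every Tyr19Phe library lay below every treated library, the nearest pair being 24.5 and 25.9 CPM. The CCNE1 call did not hold without treated library 2 (log2 fold change -0.22, adjusted p = 0.217), treated library 3 (adjusted p = 0.0524), Tyr19Phe library 2 (0.126) or Tyr19Phe library 3 (0.0873). Treated library 2 was the highest of the 9 libraries for CCNE1, CCNE2 and CDKN2C.

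CCND3 had a direct difference of 0.03 on the log2 scale (SE 0.06, 95% interval -0.09 to 0.15, adjusted p = 0.810), and differences from -0.09 to 0.15 were within the interval. The other members had direct differences of -0.14 (CCNE2, SE 0.11), 0.10 (CDKN1A, SE 0.24, 95% interval -0.38 to 0.58), 0.04 (CDKN1B, SE 0.11) and -0.12 (CDKN2C, SE 0.08), none of them called.

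The balance between the cyclin messages was also described per library and per kilobase, with no test. Message levels do not give the levels of the proteins or the activity of their kinases. Summed D-type cyclins were at 111 ± 1.15 CPM per kilobase (SD, n = 3) in WT CDK9 cells, 102 ± 2.97 in treated cells and 132 ± 3.55 in Tyr19Phe CDK9 cells, and the 3 groups did not overlap. CCND1 made up 84.6% ± 0.432 of this sum in WT CDK9 cells, 85.7% ± 0.524 in treated cells and 88.7% ± 0.153 in Tyr19Phe CDK9 cells. The ratio of CCND1 to CCND3 was 5.58, 5.28 and 5.59 in WT CDK9 libraries, 6.29, 5.78 and 5.93 in treated libraries and 7.90, 7.74 and 7.98 in Tyr19Phe CDK9 libraries. The ratio was therefore lowest in untreated WT CDK9 cells and highest in Tyr19Phe CDK9 cells. The groups did not overlap, but the nearest WT and treated libraries were close, at 5.59 and 5.78. This sum and this ratio recombine CCND1 and CCND3, described above, so their separation is no further result. How often such sums or ratios of other genes separate the groups was not computed.

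Summed E-type cyclins were at 15.9 ± 1.31 CPM per kilobase (SD, n = 3) in WT CDK9 cells, 16.9 ± 1.99 in treated cells and 14.1 ± 0.712 in Tyr19Phe CDK9 cells, with CCNE1 between 62.8% and 67.6% of the sum in every library. The ratio of summed D-type to summed E-type cyclins was 6.34, 7.41 and 7.31 in WT CDK9 libraries, 6.71, 5.42 and 6.18 in treated libraries and 8.69, 9.61 and 9.86 in Tyr19Phe CDK9 libraries. The Tyr19Phe CDK9 libraries stood above all others, and the WT and treated libraries overlapped. The sum of the CIP/KIP members CDKN1A and CDKN1B stayed within 10.0 and 12.0 CPM per kilobase in all 9 libraries. CDKN1A made up 8.64% to 19.9% of it. CDKN1C, a CIP/KIP gene outside the members, is not in this sum. It was at 3.43 ± 0.219 CPM in WT CDK9 cells, 3.14 ± 0.929 in treated cells and 3.53 ± 0.0774 in Tyr19Phe CDK9 cells.

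**Figure D3:**
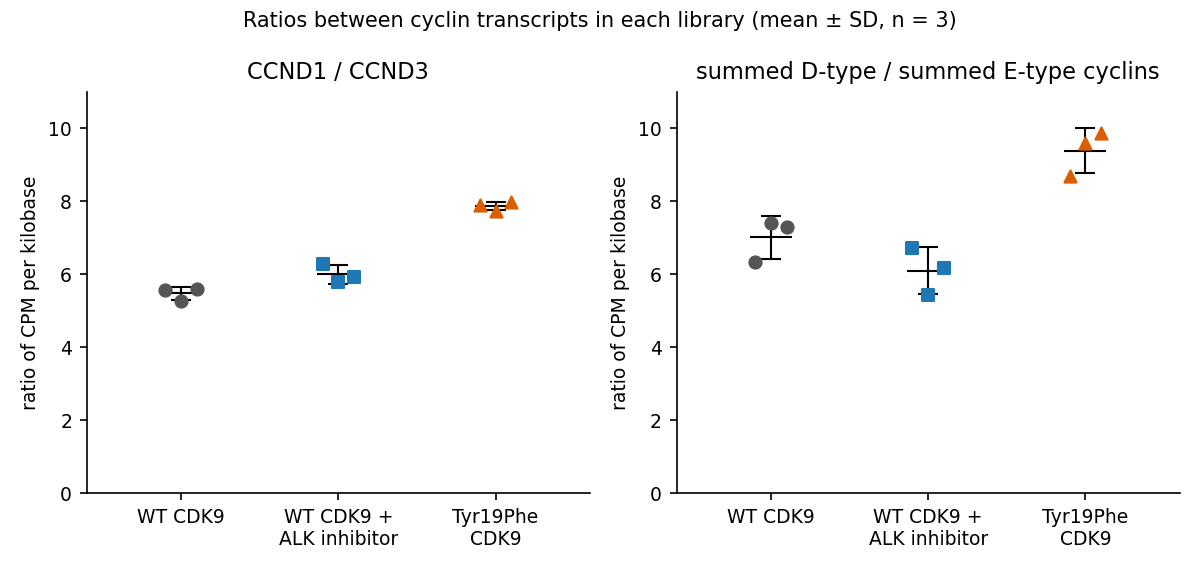
The y axes give the ratio of CCND1 to CCND3 (left) and of summed D-type to summed E-type cyclins (right), from CPM per kilobase, for each of the 9 libraries, with the mean ± SD of 3 per group. The 3 Tyr19Phe CDK9 libraries lie between 7.74 and 7.98 on the left and between 8.69 and 9.86 on the right, above the other 6 in both panels.

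Genes that overlap a member could share reads with it, because the strand setting of the counts is not given in the sources used here. LTO1, on the opposite strand of CCND1, had 383 to 803 reads per library, and its own log2 fold changes were -0.23 (SE 0.11) after ALK inhibition and 0.06 (SE 0.11) in Tyr19Phe CDK9 cells, neither called. CCNE2 lies across INTS8 (1088 to 2008 reads) and NDUFAF6 (243 to 534 reads), more reads than CCNE2 itself had in the case of INTS8, so its level is less certain. CDKN1B overlaps the noncoding AC008115.3 (0 to 26 reads) on its own strand.

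Around each member, tested genes within 5 Mb on either side were described by their median log2 fold change. For CCND1 the median over 192 neighbours was -0.0097 after ALK inhibition and 0.06 in Tyr19Phe CDK9 cells, where CCND1 itself was at 0.32. In Tyr19Phe CDK9 cells 29 of the 192 were called higher and 15 lower, beside 7.61% and 10.4% of all tested genes, and against treated cells 37 were called higher and 15 lower, beside 9.57% and 11.1%. Their part in the level of CCND1 was not tested. For CCND3 the medians over 89 neighbours were -0.0016 and 0.06, and for CCNE1 over 38 neighbours -0.05 and -0.0099. The pattern of CCND1 over the 9 libraries was closest to those of GTPBP4, DPYSL3 and NCAPH2, with root mean square differences of 0.0252, 0.0256 and 0.0346 on the log2 scale. CCND3 was closest to MAD2L2, AHNAK and CAV1, with differences of 0.0435, 0.0437 and 0.0451.

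A list of 9 CDKs and activators held the kinases that the members bind, CDK2, CDK4 and CDK6, beside genes that act on such kinases. Of the bound kinases CDK6 alone was called in any comparison, so the shares below describe the list rather than these kinases. After ALK inhibition 1 was called higher and 1 lower (22.2%, beside 4.55% of all tested genes). In Tyr19Phe CDK9 cells 2 were called higher and 1 lower than in WT CDK9 cells (33.3%, beside 18.0%). Against treated cells 1 was called, lower (11.1%, beside 20.7%). CDC25B was higher than in WT CDK9 cells after ALK inhibition (0.20, SE 0.04) and with Tyr19Phe CDK9 (0.14, SE 0.04). Both calls held in 6 of 6 fits that left out 1 library. CDC37 was higher with Tyr19Phe CDK9 (0.18, SE 0.05), a call lost without WT CDK9 library 1 or 3 or Tyr19Phe library 2. CDK6, the partner of D-type cyclins and target of p18, was lower after ALK inhibition (log2 fold change -0.19, SE 0.04, adjusted p = 0.0061) and lower in Tyr19Phe CDK9 cells (-0.45, SE 0.04, adjusted p = 1.64e-09), where CCND1 was higher. The call after ALK inhibition did not hold without WT CDK9 library 3 (adjusted p = 0.0655). CDK4 (-0.16 and -0.05) and CDK2 (-0.02 and 0.07) were not called against WT. Of 5 further cyclins and inhibitors that are not members, 2 were called lower with Tyr19Phe than with WT CDK9 (40.0%, beside 18.0% of all tested genes). Against treated cells 1 was called higher and 1 lower (40.0%, beside 20.7%). CCNA2, the S-phase partner of CDK2, was lower with Tyr19Phe CDK9, by comparison with both WT CDK9 cells (-0.28, SE 0.05) and treated cells (-0.22, SE 0.05). CCNA1, the cyclin A of germ cells, was higher than in treated cells (0.70, SE 0.17, adjusted p = 0.0030), and CDKN3 was lower than in WT CDK9 cells (-0.28, SE 0.08), a call lost without WT CDK9 library 3 or Tyr19Phe library 2 or 3. After ALK inhibition 0 of these 5 were called by edgeR's quasi-likelihood test, beside 4.55% of all tested genes, and 0 by DESeq2. In edgeR's test 2 had an unadjusted p under 0.05, beside 15.1% of all tested genes.

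Of 21 genes of cyclin and inhibitor turnover, 1 was called after ALK inhibition (4.76%, beside 4.55% of all tested genes), PCNA at -0.17 (SE 0.05), and it was lost without library 1 or 2 of either group. In Tyr19Phe CDK9 cells 8 were called (38.1%, beside 18.0% of all tested genes), 7 of them lower. USP2, a deubiquitinase of cyclin D1, had a log2 fold change of -0.74 (SE 0.17, adjusted p = 0.0013) and CUL1, the scaffold of the SCF ligases, of -0.27 (SE 0.06, adjusted p = 0.0015) in Tyr19Phe CDK9 cells. The 8 calls became 5 without Tyr19Phe library 3, where USP2 and CUL1 were still called. Against treated cells 1 was higher and 5 lower (28.6% called, beside 20.7% of all tested genes), and 3 were called without Tyr19Phe library 2 or 3. Of 28 transcription factors known to act on the members, 3 were called after ALK inhibition (10.7%, beside 4.55% of all tested genes) and 12 in Tyr19Phe CDK9 cells (42.9%, beside 18.0%). Of the latter 7 were higher and 5 lower, and the 12 became 7 without WT CDK9 library 3. Against treated cells 6 were higher and 5 lower (39.3% called, beside 20.7%), and 7 were called without treated library 3 or Tyr19Phe library 1 or 3. Against WT CDK9 cells, KLF6 had a log2 fold change of 0.43 (SE 0.05, adjusted p = 1.75e-08) in Tyr19Phe CDK9 cells. KLF4 was at 1.06 (SE 0.15, adjusted p = 3.38e-06) and EGR1 at -0.81 (SE 0.12, adjusted p = 8.22e-06). The part of these factors in the levels of the members was not tested.

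Of 24 early E2F targets, the class of genes to which CCNE1 belongs, 0 were higher and 4 lower after ALK inhibition (16.7% called, beside 4.55% of all tested genes), and leaving out any 1 of the 6 libraries left at most 2 calls, none of them without WT CDK9 library 2. Against WT CDK9 cells, 3 were higher and 4 lower in Tyr19Phe CDK9 cells (29.2% called, beside 18.0% of all tested genes). Against treated cells 8 were higher and 0 lower (33.3% called, beside 20.7%). CCNE1, not itself among the 24, was at 0.12 (SE 0.11) in the inhibitor comparison, not called and with overlapping groups. Against treated cells it was at -0.32, the other way from the 8, a call that held in 2 of 6 fits that left out 1 library. CCNE2 was at 0.01 and -0.14 in these comparisons, neither called. Of 11 pocket proteins and E2F factors 1 was called after ALK inhibition (9.09%, beside 4.55% of all tested genes), E2F1 at -0.20 (SE 0.05), and it was lost without WT CDK9 library 2 or 3 or treated library 2 or 3. In Tyr19Phe CDK9 cells 3 of the 11 were called, all lower (27.3%, beside 18.0%), and 1 without WT CDK9 library 1 or Tyr19Phe library 2. Against treated cells 1 was higher and 2 lower (27.3% called, beside 20.7%), and 2 were called without treated library 2 or Tyr19Phe library 3. The higher one was E2F1 (0.26, SE 0.05), a call that held in 6 of 6 fits that left out 1 library.

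**Figure D4:**
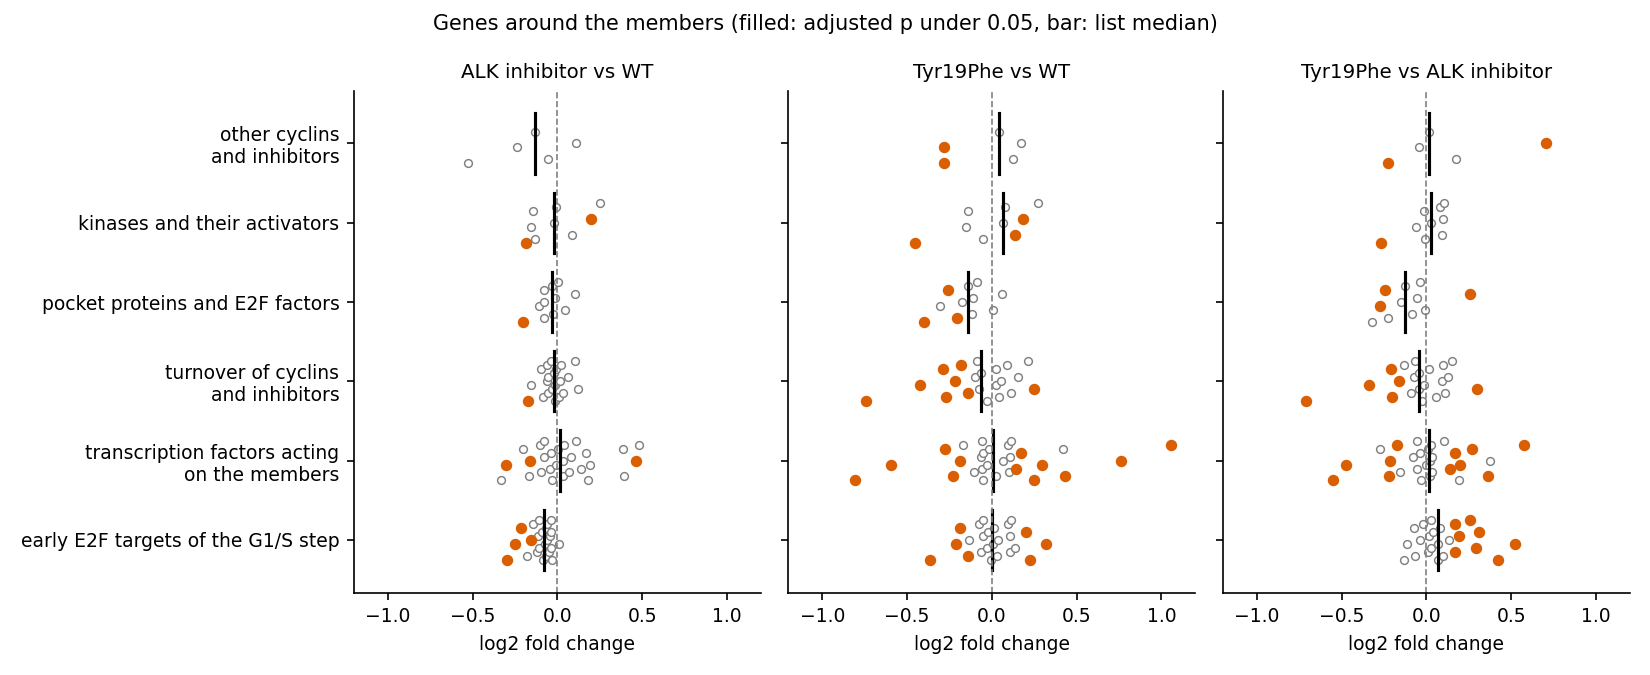
Each point is a tested gene of 1 of 6 lists (rows), the x axes give its log2 fold change in the 3 comparisons (panels), filled points had an adjusted p under 0.05 and bars mark list medians. The 24 early E2F targets have a median of -0.08 after ALK inhibition and of 0.07 between Tyr19Phe and treated cells, beside -0.0010 and 0.0018 over all tested genes.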

How the data were processed

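RNA of 9 SKOV3 libraries, 3 per group, was analysed. Per the submitters' processing notes, CASAVA, HISAT2 2.0.5 and featureCounts 1.5.0-p3 were used on GRCh38/hg38, and the authors deposited raw counts of reads per gene; the annotation release and strand setting are not given in the sources used here. Groups came from the sample titles.

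Counts were fitted with edgeR 4.0.16 (R 4.3.3): filterByExpr (minimum count 10, minimum total 15), TMM scaling, 1 mean per group over all 9 libraries, glmQLFit and glmQLFTest, with Benjamini-Hochberg adjustment over 16350 tested genes and adjusted p under 0.05 as a call. Intervals at 95% used the standard error and the fit's degrees of freedom. The fit was tested on simulated data. Levels between genes were compared as CPM per kilobase of the listed length. DESeq2 1.42.0, other scalings, other filters, a replicate block and leaving out each library were alternatives.

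The members and gene lists were chosen with earlier results of these data known, so no list was tested as a set. Genes named from a list were among the 3 with the smallest adjusted p per direction and comparison. The exceptions were CDK4 and CDK2, as partners of members, and CDKN1C, as a CIP/KIP gene outside the members. These were added after their values were seen. Genes named for likeness were the 3 tested genes of at least 1 CPM with the smallest root mean square difference in log2 CPM (prior count 2), centred on WT CDK9. Same-numbered libraries did not deviate together (correlations -0.0116 to 0.026), so the numbers were not used as pairs. 1 regulator of the members and its list of targets are not reported here. Promoter sequence and starts are from RefSeq.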

Additional observations from a re-analysis of the deposited data

Results flagged for a closer look

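CCND1 differed between Tyr19Phe CDK9 cells and treated cells. The Tyr19Phe CDK9 cells are a separate line with deeper libraries, so the substitution cannot be told apart from line or depth. The log2 fold change of Tyr19Phe against treated cells was 0.42 (adjusted p = 3.55e-10 in edgeR's quasi-likelihood test), with all 3 Tyr19Phe CDK9 libraries above all 3 treated libraries. Against WT CDK9 it was 0.32 in Tyr19Phe CDK9 cells and -0.10 after ALK inhibition.

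CCNE1 also differed, with a log2 fold change of -0.32 (adjusted p = 0.0316) and all 3 Tyr19Phe CDK9 libraries below all 3 treated libraries. Against WT CDK9 it was -0.20 and 0.12, neither called, and the direct call held in 2 of 6 fits that left out 1 library. The cause of either difference was not tested.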

How the results depend on the processing

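The log2 fold changes of the 7 tested members were recomputed under 18 alternative settings, 315 values in all, and 297 kept their direction and their side of the threshold, 9 lost a call, 1 gained one and 8 changed sign. The cause was not tested. With DESeq2, 2 members were called after ALK inhibition, CCND1 in addition to CCND3. Leaving out 1 library at a time, the members called were 0 to 1 after ALK inhibition, 1 to 2 in Tyr19Phe CDK9 cells and 1 to 2 between them. All genes called were 491 to 608, 2180 to 2623 and 2622 to 2961, and the fewest after ALK inhibition were without WT CDK9 library 1.

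The sign changed only for values that were not called, and each time when a library was left out. After ALK inhibition CCNE2 ranged from -0.084 (without treated library 2) to 0.069, being also below 0 without WT CDK9 library 2 (-0.02) or 3 (-0.0097). CDKN2C ranged from -0.054 (without treated library 2) to 0.094, and was at -0.02 without WT CDK9 library 3. In Tyr19Phe CDK9 cells CDKN1B ranged from -0.155 to 0.048 (without Tyr19Phe library 3). Between Tyr19Phe and treated cells CDKN1A ranged from -0.042 (without Tyr19Phe library 3) to 0.22, and CDKN1B from -0.057 (without Tyr19Phe library 1) to 0.15.

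With the replicate block, 1, 2 and 2 members and 818, 3076 and 3465 genes were called in the 3 comparisons, and the block changed no member's call. Of all genes called after ALK inhibition 39.9% were higher, and 54.1% with scaling by library size alone. In Tyr19Phe CDK9 cells these shares were 42.3% and 51.6%. CDKN1A, with 54 to 161 reads per library, had the fewest reads of the tested members and the widest intervals.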
